A study of Mus musculus with 54 samples.

Results

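Timing transition windows of mouse embryonic stem cells (ESCs) are the 50 kb stretches of the genome over which DNA replication passes steeply from early to late S phase. They were selected on measured values: the timing of both alleles was averaged over 5 ESC lines in 2i medium, and an autosomal window was kept where the averages 200 kb downstream and 200 kb upstream of it differed by at least 2.4. The rule gave 6223 windows, 15.4% of the 40455 autosomal windows that have both flanks and part of 43941 autosomal windows in all. The 3 windows just inside the limit had differences of 2.4005, 2.40056 and 2.40061, and the 3 just outside had 2.39971, 2.39965 and 2.3996. The difference between the flanks is called the slope below. It chose the windows, so its values in 2i ESCs are a description with no test.

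Repli-Seq profiles had been made from F1 hybrids of mouse strains, to ask how the alleles of a locus differ and how this varies with cell type. In this assay cells take up BrdU in a pulse, cells in early S phase are sorted from those in late S phase, and the labelled DNA of each is sequenced. The 54 libraries form 27 profiles of an early and a late fraction, and each profile has a value for each allele in each window. A value is the log ratio of early to late signal, read as log2, so that positive means early; an allelic difference is 129 minus Cas, positive where the 129 allele replicated earlier.

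The ESC lines in 2i were F121 (1 profile), F121-6, F121-9 and F123 (2 profiles each), all labelled 129 / cas, and Cas129 (2 profiles), labelled cas / 129. F123 is labelled male and the other lines female. F121-6 and F121-9 were also grown in ES medium on inactivated feeder fibroblasts (2 profiles each), and mouse reads from the feeders cannot be told apart from those of the ESCs by these values. Neural precursor cells (NPCs) came from F121-9 (1 profile) and Cas129 (2 profiles) at day 11 of differentiation. Mouse embryonic fibroblasts (MEFs) came from 4 embryos labelled cas / 129 (2 profiles each); the labels give female for embryos 1 and 2 and male for embryos 3 and 4. Extraembryonic endoderm (XEN) cells are 1 female C57B6 / cas line (2 profiles), and V6.5 is 1 male C57B6 / 129 ESC line (1 profile). All MEFs have the same direction of cross, so strain and parent of origin cannot be told apart in them; in ESCs and NPCs Cas129 is the reciprocal cross.

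The genome replicates in large domains whose origins fire together. An early domain meets a late one across a transition region, where few origins are used and forks move from the early side into the late one. Because domains switch timing as cells differentiate, a border seen in ESCs may stay, move or vanish in another cell type.

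Some profiles stand apart. Over the X, the 129 track of embryo 1, labelled female, was flat, with an SD 0.1024 and 0.1209 times that of the autosomes in its 2 profiles. That is as in embryo 4 (0.1087 and 0.07639) and in the Cas track of F123 (0.0708 and 0.07402), both labelled male. In embryo 3, labelled male, both tracks varied (0.5457 to 0.6959), as in embryo 2 (0.5436 to 0.6848). The sex labels of embryos 1 and 3 thus go against their X tracks, and counts without both are given where they move. In V6.5, labelled male, both X tracks varied (0.9376 and 0.9346), and its alleles differed by a median of only 0.0268 over the transition windows, against 0.316 to 0.418 in the 5 hybrid lines in 2i. V6.5 is therefore used for timing and not for alleles. The MEF and XEN columns may have been scaled separately from the ESC and NPC columns. Timing levels of MEFs and XEN cells are therefore set against those of ESCs only with a second scaling or as percentiles of the same profile. Read counts are not in the table used here and the depth is unknown. Nothing states whether profiles of a line are separate cultures, so lines and embryos are the units of the tests.

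The promoters below stand for the genes described further on. They are those of genes of 3 tissue lists whose start lies in a transition window, and their windows had different fates. They run from 250 bases before to 50 bases after the start of the gene, from RefSeq on GRCm38.p6, and CG dinucleotides are in capitals.
Col1a2 (chr6:4505368-4505667, plus strand): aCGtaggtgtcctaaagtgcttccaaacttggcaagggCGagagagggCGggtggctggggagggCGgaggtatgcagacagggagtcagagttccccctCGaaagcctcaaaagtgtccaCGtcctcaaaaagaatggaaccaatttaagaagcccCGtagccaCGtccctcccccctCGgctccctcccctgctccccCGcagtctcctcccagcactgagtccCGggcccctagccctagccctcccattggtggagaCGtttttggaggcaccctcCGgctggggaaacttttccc
Cav1 (chr6:17306085-17306384, plus strand): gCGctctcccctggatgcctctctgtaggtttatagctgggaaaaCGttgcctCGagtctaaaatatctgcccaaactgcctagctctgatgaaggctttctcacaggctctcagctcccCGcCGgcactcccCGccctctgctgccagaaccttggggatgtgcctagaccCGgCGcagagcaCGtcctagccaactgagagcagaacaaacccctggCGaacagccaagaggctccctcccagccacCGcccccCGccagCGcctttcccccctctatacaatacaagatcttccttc
Postn (chr3:54359017-54359316, plus strand): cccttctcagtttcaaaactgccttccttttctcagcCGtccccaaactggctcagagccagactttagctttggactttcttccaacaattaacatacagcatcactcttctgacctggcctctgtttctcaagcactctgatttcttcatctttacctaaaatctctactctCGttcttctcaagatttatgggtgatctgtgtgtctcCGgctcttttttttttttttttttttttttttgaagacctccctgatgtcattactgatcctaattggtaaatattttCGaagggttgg
Lrp2 (chr2:69585980-69586279, minus strand): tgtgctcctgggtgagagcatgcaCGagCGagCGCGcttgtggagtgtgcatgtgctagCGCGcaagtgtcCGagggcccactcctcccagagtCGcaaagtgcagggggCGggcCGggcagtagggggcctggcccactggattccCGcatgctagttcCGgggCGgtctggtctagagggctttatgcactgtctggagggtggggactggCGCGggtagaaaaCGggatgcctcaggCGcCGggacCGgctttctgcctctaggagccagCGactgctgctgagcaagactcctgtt
Pou3f2 (chr4:22488317-22488616, minus strand): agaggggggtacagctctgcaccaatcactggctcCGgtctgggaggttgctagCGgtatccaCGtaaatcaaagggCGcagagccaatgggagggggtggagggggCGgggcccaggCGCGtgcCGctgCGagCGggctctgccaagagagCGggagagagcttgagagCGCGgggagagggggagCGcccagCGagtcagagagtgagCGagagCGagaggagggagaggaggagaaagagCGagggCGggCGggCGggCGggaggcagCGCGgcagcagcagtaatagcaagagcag
The Postn promoter holds 4 CG dinucleotides, those of Col1a2 and Cav1 hold 13 each, that of Lrp2 holds 20 and that of Pou3f2 holds 24. Over the 1429 promoters in transition windows the median was 6. It was 18 over 9683 promoters in other windows on the early side of the median timing and 3 over 1912 on the late side, so the median at borders lay between those of early and late DNA. Each count covers the printed strand of a window of 300 bases, in which the same dinucleotide reads CG on both strands.

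The windows lay side by side in 1192 regions, in which windows of 1 direction are joined over gaps of at most 1 window. In 580 regions (3079 windows) timing went later downstream and in 612 (3144 windows) earlier. Regions had a median length of 250 kb (quartiles 150 and 350, longest 700), 119 held a single window, and the windows covered 311 Mb. All 19 autosomes had members, from 12.9% of windows with flanks on chromosome 4 to 18.2% on chromosome 8. The median timing of the windows was -0.50 (quartiles -1.59 and 0.64), near the -0.66 of all autosomal windows.

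The median slope was 2.997 and the largest 4.91, against a median of 0.686 in other windows. The lines contributed unequally. Median slopes over the members were 3.48 in F121-6, 3.24 in F121-9, 3.17 in F123, 2.86 in F121 and 2.47 in Cas129, the shallowest. The profiles that the rule did not use had the same borders. On feeders the median slope was 3.13, and 99.5% of the members had a slope of at least 1.2 in the ESC direction, a border counted as kept below. In V6.5, with no Cas genome, the median was 3.27 and 96.3% were kept.

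The genes nearest the steepest borders were of unrelated kinds. The steepest window held Ppt1, a lysosomal thioesterase, and was next to Cap1, an actin regulator (chr4:122800001-122850000 on mm10, as are all windows below). Its slope was 4.91 ± 0.42 (SD, n = 5 lines), and it was 5.15 in NPCs, 4.42 in MEFs and 3.898 in XEN cells. Next came windows near Adam6b (chr12:113400001-113450000, slope 4.82), at Kap with Etv6, an ETS repressor gene, further off (chr6:133800001-133850000, 4.79), near Cd109, a surface protein (chr9:78800001-78850000, 4.79), near Tmpo, a protein of the nuclear lamina (chr10:91450001-91500000, 4.77), and in Lrmda near the transcription factor gene Zfp503 (chr14:22050001-22100000, 4.67). These 6 were chosen for their slope. All 6 were kept in NPCs, MEFs and XEN cells, but not at one strength: at Cd109 the slope in MEFs was 1.51 and at Lrmda the slope in NPCs was 1.79.

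Most ESC borders were still borders in the other cell types, and MEFs had fewest. A border is lost below where the slope lies between -1.2 and 1.2, and turned where it is -1.2 or less, so that the side that is early in ESCs is the later one. Of the 6223 windows, 4745 (76.2%) were kept in NPCs, 4098 (65.9%) in MEFs and 4733 (76.1%) in XEN cells. The background shares are those of all 40455 windows with flanks: 28.1% had a slope of at least 1.2 in the ESC direction in NPCs and 29% in MEFs with an adjusted p below 0.05 (limma against 0, Benjamini-Hochberg). Every kept window of the NPCs and MEFs passed that test. Among windows that are not members, 19.3% (NPC), 22.4% (MEF) and 25.2% (XEN) had a slope of at least 1.2 in their ESC direction. Only 29.9% of these windows had such a slope in the mean of the ESC lines, so most had no border to keep. How many of that part kept it is not given here, so these shares do not measure retention. The shares of members kept were alike within a cell type. F121-9 NPCs kept 74.1% and Cas129 NPCs 76.7%, and the 4 embryos kept 65.6%, 65.9%, 66.9% and 64.7%. The difference in shares between cell types was not tested.

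**Figure D1:**
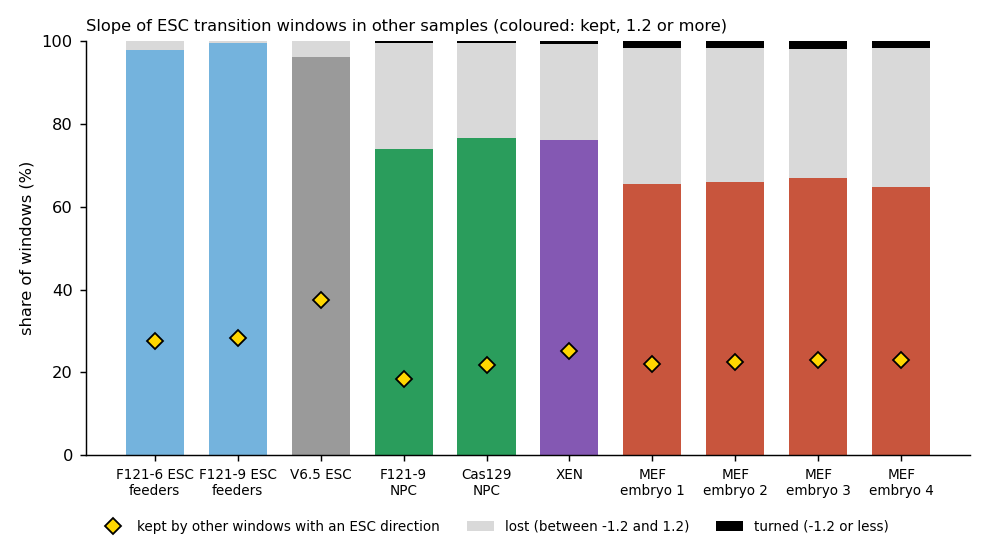
Share of the 6223 ESC transition windows (vertical axis, percent) that are kept (coloured bars), lost (grey) or turned (black) in each line or embryo that the rule did not use; diamonds give the share of other windows with a slope of at least 1.2 in their ESC direction. Feeder ESCs and V6.5 keep nearly all, NPCs and XEN between 74.1% and 76.7% and MEFs between 64.7% and 66.9%.

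Loss was more common than reversal. In NPCs 1467 windows (23.6%) were lost and 11 turned, in MEFs 2025 (32.5%) were lost and 100 turned, and in XEN cells 1447 (23.3%) were lost and 43 turned. By the test, 100 windows of the MEFs (1.61%, background 5.27%) and 11 of the NPCs (0.177%, background 2.35%) had a slope of at least 1.2 against the ESC direction. The lost windows did not all end on the same side. Against the autosomal median of their own cell type, 576 of the lost NPC windows were early and 891 late, 1025 and 1000 in MEFs, and 813 and 634 in XEN cells. Borders lost in NPCs thus lay more often in late DNA. Their median timing percentile in NPCs (100 is the earliest window) was 40.1, against 49.5 at kept ones. Those lost in XEN cells lay more often in early DNA, but their median of 53.6 was near the 52.0 of kept ones. These are counts and medians with no test.

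The fates overlapped. In all, 3218 windows (51.7%) were kept in NPCs, MEFs and XEN cells, 724 (11.6%) were lost in MEFs alone and 478 (7.68%) were lost in all 3. Lost in NPCs and MEFs and kept in XEN cells were 456, and lost in XEN cells alone 443. Counted by the steepest window of each region, 597 of 1192 regions (50.1%) were kept in all 3, 140 were lost in MEFs and kept in the other cell types, and 99 were lost in all 3.

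Seen along the chromosome, the transitions were flatter outside ESCs. In percentiles of each profile's own autosomal windows, where 100 is the earliest, the medians 200 kb to the early side, at the window and 200 kb to the late side were 70.3, 51.6 and 35.0 in 2i ESCs. They were 62.3, 48.1 and 36.0 in NPCs, 61.0, 48.4 and 37.7 in MEFs and 65.3, 52.3 and 39.9 in XEN cells. The early flank was lower by more than the late flank was higher in NPCs and MEFs. Since the windows were chosen for being steep in ESCs, some flattening elsewhere comes with the choice, and its part was not tested.

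**Figure D2:**
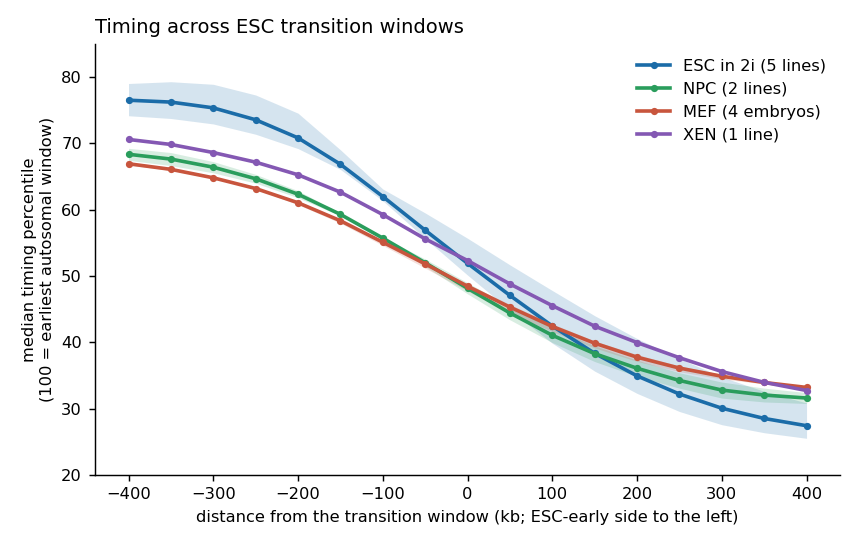
Median timing percentile (vertical axis, 100 is the earliest autosomal window of a profile) against distance from the transition window (horizontal axis, kb, ESC-early side to the left) for 2i ESCs, NPCs, MEFs and XEN cells; lines are means over lines or embryos and bands their range. The ESC curve is the steepest, and at 200 kb on the early side it lies at 70.8 as a mean of line medians, above the 62.3 of NPCs, 61.0 of MEFs and 65.3 of XEN cells.

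At lost borders both flanks lay close together in the cell type concerned. In MEFs, the 2025 lost windows had flank medians of 53.6 and 49.1 percentiles, against 64.2 and 34.4 at the 4098 kept ones. In NPCs the 1467 lost windows lay at 45.7 and 40.2, both late, against 65.5 and 35.0 at the kept ones. In ESCs themselves the early flank of these windows was already later than that of kept ones. It was at 64.1 for those lost in NPCs and 72.3 for those kept, and at 65.6 and 72.6 for MEFs. For XEN cells it was 69.1 and 70.7.

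Timing at the windows themselves moved later in NPCs more often than elsewhere in the genome. NPCs were later than ESCs by at least 1 with an adjusted p below 0.05 (limma) in 1767 windows (28.4%, background 16.2%) and earlier in 810 (13.02%, background 16.4%). The median change over the windows was -0.34, against 0.036 over all windows. Both NPC lines are also among the ESC lines, and the test had no term for the line. For MEFs the direction depends on the scaling. As deposited, MEFs were earlier in 1889 windows (30.4%, background 30.4%) and later in 1144 (18.4%, background 13.9%), so that 62.3% of the 3033 changed windows were earlier. With quantile normalization 1240 were earlier and 1959 later, 38.8% earlier, and with median centring 36.2%. No direction of the MEF timing is read from these counts. Single loci show what kept, lost and turned mean.

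Among the borders kept most strongly in every cell type, chosen for the size of their smallest slope outside ESCs, was one inside Grid1, a glutamate receptor gene (chr14:35000001-35050000). Its slope was 3.10, 4.91, 4.38, 4.67 and 3.12 in the 5 lines in 2i, listed here and below as F121, then F121-6 and F121-9, then F123, then Cas129. It was 3.92 and 4.73 in F121-9 and Cas129 NPCs, 3.95, 4.01, 4.01 and 4.17 in embryos 1 to 4, and 4.04 in XEN cells. All values overlap those of the ESC lines, although its level differed: the flanks were at 3.32 and -0.72 in XEN cells and at 1.29 and -2.75 in MEFs. The others were the window at Ppt1 above, one at Psg23 and Psg21 in the cluster of pregnancy-specific glycoproteins (chr7:18600001-18650000, slopes of 4.11 in ESCs, 4.67 in NPCs, 3.77 in MEFs and 4.02 in XEN cells) and one near Cntnap4, a neurexin-family adhesion gene (chr8:112300001-112350000, 4.46, 4.51, 3.70 and 4.12). The Psg genes are near-identical copies, so how reads were placed among them is uncertain.

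The 4 regions with the lowest slopes outside ESCs, chosen at their steepest ESC window as those whose largest slope over NPCs, MEFs and XEN cells was smallest, had each a later early side in NPCs than in ESCs. At Spata31d1c and Prss47 (chr13:65000001-65050000), another cluster of similar genes, the ESC slope of 2.97 ± 0.43 (SD, n = 5) stood against -1.08 in NPCs, -1.26 in MEFs and -1.59 in XEN cells. Its early flank was at 2.52 in ESCs and at -3.61 in NPCs, -3.07 in MEFs and -1.73 in XEN cells. At Pde4b, a cAMP phosphodiesterase gene (chr4:102150001-102200000), the slope was 3.19, 4.85, 4.36, 3.41 and 2.503 in the 5 ESC lines. In MEFs it was -1.47, -1.60, -1.42 and -1.27 in embryos 1 to 4, in NPCs -0.72 and -0.83, and in XEN cells -0.98. No MEF or NPC value reached those of the ESC lines. The slope in MEFs was below 0 with an adjusted p of 0.000258 (limma), and in NPCs the p was 0.109. The region was chosen for low slopes in these same cells, so these p-values carry no weight as a test there. A window in gene-poor DNA between Slc8a1 and Pkdcc (chr17:82450001-82500000) had 2.62 in ESCs and -0.94, -1.37 and -2.45 in NPCs, MEFs and XEN cells. One near Pitrm1 and Pfkp, a phosphofructokinase gene (chr13:6400001-6450000), had 3.52 and -0.44, -1.06 and -0.98. In MEFs both of its flanks were early (1.12 and 2.18). By the limits given above, the borders at Spata31d1c and between Slc8a1 and Pkdcc were turned in MEFs and XEN cells. That at Pde4b was turned in MEFs. The other slopes of these regions outside ESCs count as lost.

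Some tissue genes started in transition windows, and no placed gene of 4 other lists did. Of the 13024 protein-coding genes whose start could be placed in a window with flanks, 1429 (11.0%) started in a transition window. No gene did of 11 placed pluripotency genes, 17 replication genes, 12 housekeeping genes and 9 chromatin architecture genes. Of 12 fibroblast genes 4 did (Col1a2, S100a4, Postn and Cav1), of 10 endoderm genes 4 (Lamb1, Col4a1, Col4a2 and Lrp2) and of 13 neural genes 2 (Pou3f2 and Pou3f3). The lists are short, were chosen with earlier results of these data known, and were not tested. With genes placed by their midpoint, which reaches more genes, the counts were 6 of 18 endoderm genes (with Gata6 and Sox17), 5 of 21 fibroblast genes (with Snai2), 2 of 16 neural genes and none of 19, 22, 16 and 12 genes of the other lists in the order above.

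The fibroblast genes Cav1, Postn and Col1a2 were in late or middle DNA in ESCs (percentiles of 33.2, 26.0 and 53.5) and in earlier DNA in MEFs (97.0, 66.5 and 78.1). At Cav1, the caveolin of surface pits (chr6:17300001-17350000), timing was -1.97, -2.19, -2.55, -2.17 and -2.14 in the 5 ESC lines. It was 3.54, 3.53, 3.87 and 3.47 in embryos 1 to 4, -0.61 and -0.96 in the NPC lines and -1.07 in XEN cells. The MEF and ESC values do not overlap; the change was 5.80 ± 0.16 (SE, adjusted p = 2.526e-12, limma) as deposited and 5.23 with quantile normalization. Its slope was 2.43 in ESCs and -0.28 in MEFs, where the window lay within early DNA.

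At Postn, which encodes a matrix protein (chr3:54350001-54400000), timing was -2.57, -3.001, -2.92, -2.80 and -2.73 in the ESC lines in the same order. It was 1.44, 1.53, 1.44 and 1.02 in the embryos, -1.92 and -1.30 in NPCs and -2.32 in XEN cells. The MEFs stand apart from all other cells here (change 4.16 ± 0.17, SE, adjusted p = 3.548e-11, limma; 3.65 with quantile normalization), yet the border was kept, with a slope of 1.62.

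At Col1a2, a chain of collagen I (chr6:4500001-4550000), timing was between -0.69 (Cas129) and -0.12 (F121-6) in the ESC lines. It was 2.06 and 1.97 in the NPC lines, 2.19, 2.44, 2.23 and 1.97 in the embryos and -0.54 in XEN cells. In percentiles, NPCs (80.8 and 80.0) and MEFs (74.7 to 81.5) overlap each other and lie above every ESC line in 2i (49.0 to 56.5). XEN cells were at 43.6, below every one of these ESC lines. The change was 2.33 ± 0.21 in NPCs (SE, adjusted p = 5.083e-07, limma) and 2.52 ± 0.17 in MEFs (adjusted p = 4.055e-09, limma; 2.11 with quantile normalization). The border was kept in NPCs (slope 2.09) and in XEN cells (1.58), and lost in MEFs (0.029). The fourth gene of the list, S100a4, a calcium-binding protein gene (chr3:90600001-90650000), was early in ESCs already, at 2.30 ± 0.22 (SD, n = 5), and its border was kept in MEFs at 1.88.

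The 4 endoderm genes in transition windows were in the earlier part of the genome already in ESCs. Col4a1 and Col4a2, collagen IV chains that share a bidirectional promoter, lay in 1 window (chr8:11300001-11350000) at 1.25 ± 0.44 (SD, n = 5) with a slope of 3.74. The border was lost in NPCs (0.576), MEFs (0.673) and XEN cells (-0.672). In percentiles this window was at 70.7 in ESCs, 84.5 in NPCs, 74.7 in MEFs and 69.1 in XEN cells, so it was not earlier in XEN cells. Lrp2, the endocytic receptor megalin (chr2:69550001-69600000), was at 1.48 ± 0.18 in ESCs, and at 2.48 and 2.68 in the NPC lines (change 1.09 ± 0.18, SE, adjusted p = 0.000153, limma). In XEN cells it was at 2.63. Its percentiles were 73.5 in ESCs, 88.2 in NPCs, 77.7 in MEFs and 84.0 in XEN cells. Its slope of 3.42 became -0.83 in XEN cells, 1.19 in NPCs and 1.28 in MEFs. Lamb1, a laminin chain (chr12:31250001-31300000), was at 0.48 ± 0.49 in ESCs and 1.99 in XEN cells (percentiles of 61.9 and 72.8). Its slope of 2.44 became 1.11 in XEN cells.

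Both neural genes were late in the ESC lines with a Cas genome. In the ESC line without a Cas genome both were on the early side of the median, at percentiles of 59.2 (Pou3f2) and 55.1 (Pou3f3). Pou3f2 and Pou3f3 encode POU factors of neural progenitors. At Pou3f2 (chr4:22450001-22500000) timing was -1.47, -0.997, -0.93, -1.60 and -1.40 in the ESC lines in the order above and -1.61 and -1.40 in the NPC lines, which overlap them (change -0.23, adjusted p = 0.387, limma). It was -2.31, -2.38, -2.33 and -2.28 in the embryos, later than every ESC line (change -1.05 as deposited and -1.63 with quantile normalization). At Pou3f3 (chr1:42650001-42700000) NPCs were earlier than the ESC lines listed above by 1.15 ± 0.26 (SE, adjusted p = 0.00181, limma), at -0.60 and -0.58 against -2.42 to -1.28. The ESC line without a Cas genome, which was not in the test, was at -0.15, earlier than both NPC lines. The borders at both genes were lost in NPCs (0.268 and 0.635). In MEFs that at Pou3f2 was kept at 1.65 and that at Pou3f3 at 3.21.

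Timing at marker genes of the cell types, placed by midpoint, followed the labels in its medians, though timing is not expression. The median percentile of 6 ESC markers was 79.7 in ESCs and 20.02 to 40.5 in the other cells. It was 76.5 in MEFs for 6 MEF markers (37.7 to 58.7 elsewhere), 77.6 in XEN cells for 5 XEN markers (52.3 to 63.1 elsewhere) and 71.7 in NPCs for 6 NPC markers (46.9 to 62.6 elsewhere). Above the 50th percentile in their own cell type were 6 of 6 ESC, 4 of 6 NPC, 5 of 6 MEF and 5 of 5 XEN markers. In ESCs 4 of the 6 NPC markers were above it too, so by count they do not set NPCs apart from ESCs.

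Genes were sparser at borders than on their early side. By midpoints, the windows held 5.84 genes per Mb, against 11.1 on the early flank, 4.18 on the late flank and 8.48 in other windows. The 3218 borders kept in all 3 cell types had 6.89 genes per Mb and the 478 lost in all 3 had 3.43, but the kept ones were also earlier in ESCs (median timing -0.27 and -0.93), and how far timing accounts for the density was not tested.

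Turning to the alleles, which the rule averaged, transition windows differed between the 129 and Cas alleles somewhat more often than the genome as a whole. With a difference of at least 0.5 and an adjusted p below 0.05 (limma), the 129 allele was earlier in 1105 windows in 2i ESCs (background 13.8%) and the Cas allele in 923 (background 12.6%). Together these are 2028 windows, 32.6% of the members against 26.4% of all autosomal windows. Which allele was earlier more often depends on the scaling: 54.5% of the called windows were earlier on 129 as deposited, 51.8% with quantile normalization and 47.2% (943 against 1056) with median centring. They lay in 560 of the 1192 regions: 305 regions had windows earlier on 129 only, 252 on Cas only, and 3 had both. Of the 932 regions of 3 or more windows, 690 (74.03%) had 1 sign of the mean difference in all their windows, called or not; neighbouring windows share flanks and are not independent, and the share in other runs of windows was not measured.

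The share of windows with a difference varied with mean timing, which differs between borders and the rest. Very early and very late windows seldom differed between alleles, and few of them are borders. Among windows of like mean timing, borders differed less often than others in most of the timing scale. In decile 4 of the timing scale, counted from the latest, 37.6% of 997 transition windows differed against 43.9% of 3049 others. In decile 6 it was 32.8% of 1323 against 45.5% of 2759. The order was the same in every decile from 3 to 9, and the opposite in decile 2, where 26.1% of 69 transition windows differed against 20.9% of 3990 others. The rule itself bears on this, since it asks for a steep mean of both alleles. The 1663 windows that were steep (2.4 or more) on 1 allele and not in the mean are not members, and 45.0% of them differed. Of the members, 5006 were steep on both alleles and 1217 on 1. The share was 35.2% over all 7886 windows steep on either allele and 24.6% over the 32569 steep on none. Within deciles 4 to 8 the windows steep on an allele again differed less often (35.4% against 45.1% in decile 6), and in decile 3 more often (41.9% against 36.7%). These shares were not tested.

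**Figure D3:**
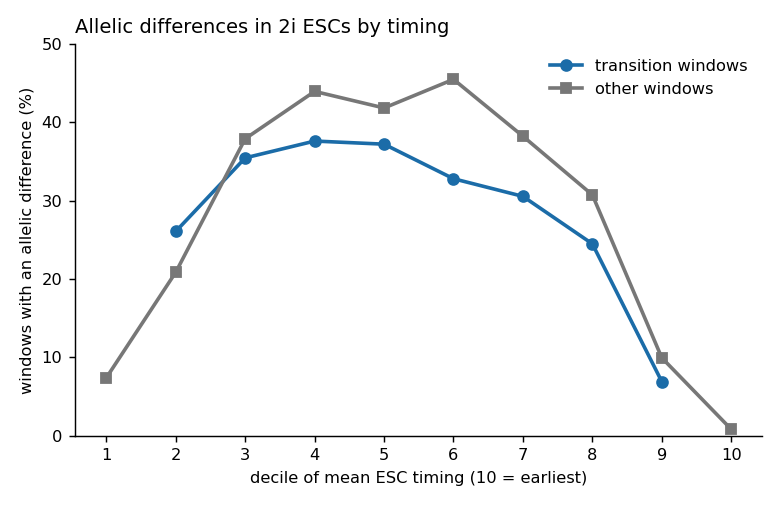
Share of windows (vertical axis, percent) with an allelic difference in 2i ESCs by decile of mean timing (horizontal axis, 10 is the earliest) for transition windows (deciles with at least 50 of them) and other windows. Both curves peak in mid S phase, and in decile 6 the transition windows are at 32.8% and the others at 45.5%.

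A difference at a border can be read as a distance. The allelic difference was divided by the mean slope of the border, so that it says how far the border of one allele lies from that of the other. Over all transition windows the distance had a median of 41.6 kb for the mean of the 5 ESC lines, less than 1 window, and of 41.0 kb (F121-9) to 54.2 kb (F121-6) in single lines. Over the 2028 windows that passed the test the median was 101 kb (quartiles 80.8 and 141) and the largest 492 kb. With the same ESC slope, the median over all members was 50.3 kb in feeder ESCs, 28.2 kb in NPCs and 28.0 kb in MEFs. That includes borders lost in NPCs or MEFs, so it is not a distance between borders there. With each cell type's own slope, at the borders it kept, the median was 35.6 kb in NPCs and 37.7 kb in MEFs. For C57B6 and Cas in XEN cells it was 52.4 kb. The distance scales noise too, so it is no measure of true displacement where the test was not passed.

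The ESC differences had the same sign in both directions of the cross. Of the 2028 windows 2012 (99.2%) had the same sign in Cas129 as in the mean of the 4 lines of the other cross, both of which entered the test. Over all members the sign was shared in 81.7% and over all windows with flanks in 74.1%. On feeders, which did not enter the test, both lines had the sign of the 2i mean in 1729 windows (85.3%), though these are the same lines as in 2i.

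Of the 5 regions with the largest difference toward 129, the one near the olfactory receptor gene Olfr164 and Hira, a histone chaperone gene, had the largest, and it was large in every hybrid (chr16:19150001-19200000). Its differences were 3.14, 2.95, 2.62, 3.46 and 3.30 in the 5 ESC lines. They were 3.14 and 1.45 in F121-9 and Cas129 NPCs and 2.37, 3.06, 2.88 and 1.95 in embryos 1 to 4, and C57B6 minus Cas was 2.49 in XEN cells. The groups overlap, the mean was 3.09 ± 0.33 in ESCs and 2.56 ± 0.50 in MEFs (SD, n = 5 and 4), and the change was not past the test (-0.53, adjusted p = 0.239, limma). The border itself was kept at 4.29 in ESCs, 4.60 in NPCs and 4.36 in MEFs.

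These regions were chosen for the size of their ESC difference, so a smaller difference in other cells comes in part with the choice; the tests of change at them below carry this limit. Near Depdc1b, a DEP domain gene (chr13:108400001-108450000), the difference was 1.69, 2.19, 1.99, 2.49 and 2.58 in the ESC lines in that order. It was 0.24 and 0.29 in the NPC lines and 0.24, -0.10, 0.40 and 0.16 in the embryos. No NPC or MEF value reached an ESC one. The change was -2.01 ± 0.19 in MEFs (SE, adjusted p = 8.36e-06, limma) and -1.92 in NPCs (adjusted p = 0.000291), but the border had not had the same fate in both: its slope was 3.08 in NPCs and 0.23 in MEFs, against 2.96 in ESCs. In MEFs the window and both flanks were early (1.54 and 1.31 at the flanks).

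The desmoglein genes Dsg4 and Dsg1b, which encode adhesion proteins of desmosomes (chr18:20400001-20450000), had differences of 2.56, 3.12, 2.56, 2.17 and 2.401 in the ESC lines. They had 0.55 and 0.72 in NPCs and -0.04, 0.06, -0.36 and -0.15 in the embryos (change in MEFs -2.69 ± 0.18, SE, adjusted p = 1.12e-06, limma). Near Ss18, a subunit gene of the BAF remodelling complex (chr18:14550001-14600000), the ESC lines had 2.65, 3.32, 2.78, 3.21 and 3.44. The embryos had 0.55, 1.13, 0.99 and 0.76, a smaller difference of the same sign, which passed the test in MEFs too (0.86, adjusted p = 0.00107). The window at Oog1 (chr12:87550001-87600000) had 2.14 ± 0.61 in ESCs and 2.06 ± 0.28 in MEFs (SD). It lies among near-identical copies of an oocyte gene family, and the placing of reads there is uncertain.

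**Figure D4:**
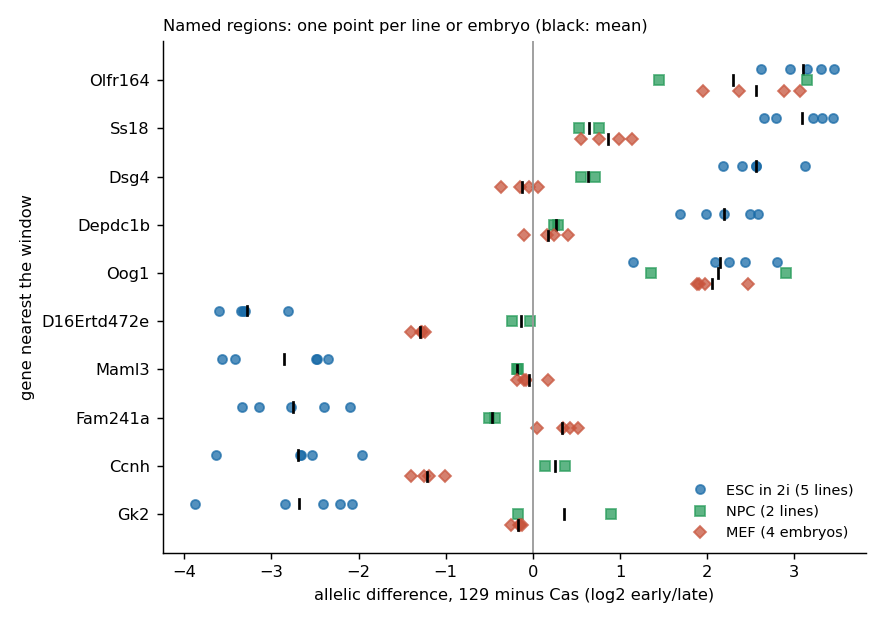
Allelic difference (129 minus Cas, log2 early over late, horizontal axis) in the 5 regions of largest and the 5 of smallest difference in 2i ESCs, named by the nearest gene (vertical axis); each point is 1 ESC line, NPC line or MEF embryo and black bars are means. The ESC points were selected for lying far from 0; outside Olfr164 and Oog1 all NPC and MEF points lie between -1.40 and 1.13.

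Toward Cas, the largest difference lay near D16Ertd472e, Chodl, which encodes a lectin, and Tmprss15, which encodes enteropeptidase (chr16:78700001-78750000). It was -3.34, -3.60, -3.33, -3.31 and -2.81 in the 5 ESC lines, -0.03 and -0.24 in the NPC lines and -1.28, -1.27, -1.23 and -1.40 in the embryos. The cell types do not overlap: MEFs kept a part of the difference (-1.30, adjusted p = 1.9e-05, limma) and for NPCs the p was 0.728.

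In Maml3, which encodes a coactivator of Notch signalling (chr3:51750001-51800000), the ESC lines had -2.35, -3.42, -2.47, -3.57 and -2.48 in that order. The NPC lines had -0.19 and -0.17 and the embryos -0.07, -0.18, -0.11 and 0.17. The window was in early DNA on both sides in NPCs (2.98 and 2.30 at the flanks) and MEFs (3.13 and 1.91), where its slope was 0.67 and 1.22.

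Near Fam241a (chr3:127950001-128000000) the ESC lines had -2.396, -3.14, -2.77, -3.34 and -2.09. The embryos had 0.05, 0.52, 0.42 and 0.34, on the other side of 0 from every ESC line (change 3.08 ± 0.23, SE, adjusted p = 1.87e-06, limma), though the MEF difference alone was not past the test (adjusted p = 0.202). Here the border was kept in both NPCs (2.97) and MEFs (2.04), so its allelic difference was smaller while the border remained.

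**Figure D5:**
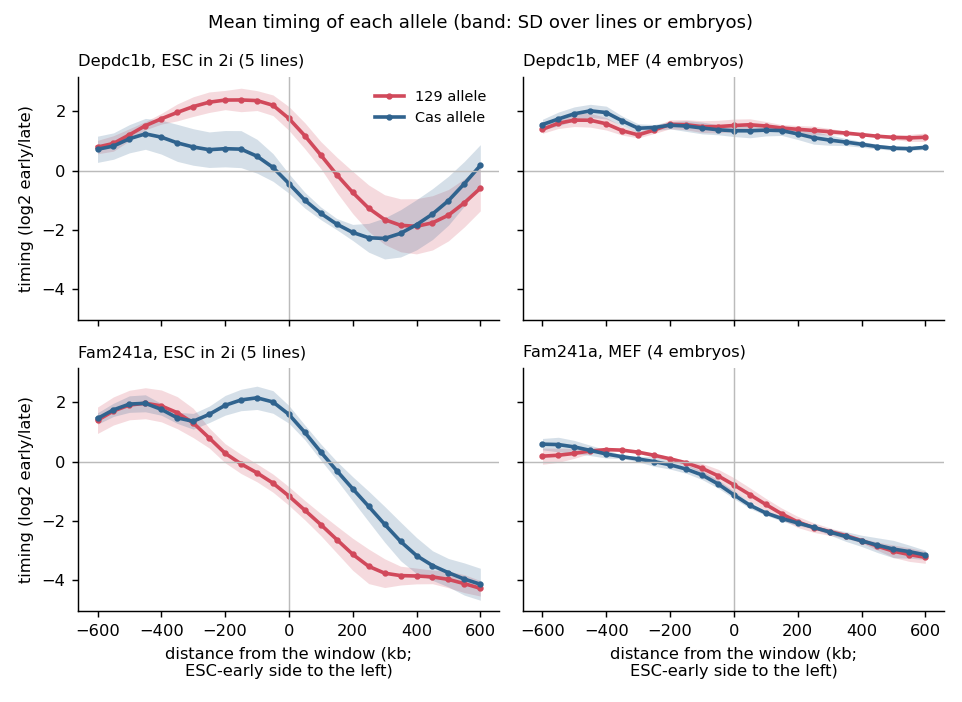
Mean timing of the 129 and Cas alleles (vertical axis, log2 early over late) against distance from the window (horizontal axis, kb, ESC-early side to the left) near Depdc1b and Fam241a in 2i ESCs (5 lines) and MEFs (4 embryos); bands are SDs over lines or embryos. In ESCs the alleles cross 0 at different distances in opposite order at the 2 loci; in MEFs both alleles are early near Depdc1b and fall together near Fam241a.

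The last pair toward Cas lay in gene-poor DNA. Some distance from Ccnh, the cyclin of the CDK-activating kinase, and Rasa1, a Ras regulator (chr13:84900001-84950000), the difference was -2.69 ± 0.60 in ESCs and -1.21 ± 0.16 in MEFs (SD, n = 5 and 4; change 1.48, adjusted p = 0.000836, limma). The NPC lines had 0.14 and 0.37. Near Gk2, a testis glycerol kinase gene (chr5:97500001-97550000), it was -2.69 ± 0.73 in ESCs and -0.17 ± 0.05 in MEFs (change 2.52, adjusted p = 8.87e-05, limma).

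In MEFs fewer transition windows differed between alleles, and more of them were earlier on Cas, though the embryos were not alike in this. The 129 allele was earlier in 365 windows (background 5.36%) and the Cas allele in 601 (background 7.21%), 15.5% of the members in all against 12.6% of all windows. The share earlier on 129 was 37.8% as deposited, 39.9% with median centring and 44.5% with quantile normalization. Over all members the median difference was -0.070 in embryo 1 and -0.114 in embryo 4, but 0.013 in embryo 2 and 0.021 in embryo 3. Without embryos 1 and 3 the count of 966 was 367, and it was 855 without embryo 1 alone and 934 without embryo 3 alone. Leaving out both also leaves fewer embryos in the fit, and how far that lowers the count was not tested. Kept and lost borders did not stand far apart: 14.7% of the 4098 windows kept in MEFs and 17.1% of the 2025 lost there had an allelic difference in MEFs. In ESCs the same windows differed in 31.1% and 35.4% of cases.

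Few of the ESC windows also passed the test in MEFs. Windows past it in both numbered 411, which are 20.3% of the ESC ones, where 15.5% of all members passed in MEFs, and 42.5% of the MEF ones, where 32.6% of all members passed in ESCs. Over all autosomal windows the shares were 17.3% and 36.3%. The sign was the same in 297 of the 411 (72.3%), against 70.1% of the 2007 such windows in the genome. Of all 2028 ESC windows 61.8% had the same sign in MEFs, against 60.1% over the genome. These shares were not tested. The difference itself changed between MEFs and ESCs in 2079 windows (33.4%, background 27.5%), or 1192 without embryos 1 and 3. Across windows, which are not independent and share the same libraries, the allelic differences of ESCs and MEFs correlated at r = 0.232 over the 6223 members and 0.134 over the others.

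The largest MEF differences, apart from those at Olfr164 and Oog1, were mostly smaller in ESCs, as regions chosen for their MEF values can be. Near Cobl, an actin nucleator gene, with the imprinted gene Grb10 further off (chr11:12650001-12700000), the embryos had -2.18, -1.92, -1.86 and -2.03, while the ESC lines had 0.03, 0.32, 0.22, 0.35 and 0.57. The groups lie on opposite sides of 0 (change -2.29 ± 0.15, SE, adjusted p = 1.1e-06, limma), and the NPC lines had 0.36 and -0.12. Near Asap2 (chr12:20850001-20900000) the embryos had -2.81, -1.62, -2.28 and -2.29 and the ESC lines -1.25 to -0.64 (change -1.24, adjusted p = 0.00574, limma). Near Nmur2, a neuromedin U receptor gene (chr11:56300001-56350000), the embryos had 1.38, 2.01, 1.68 and 1.29 and the ESC lines 0.34 to 1.22 (change 0.87, adjusted p = 0.00744, limma). At Gm10220, in a cluster of similar genes (chr5:26100001-26150000), the means were -1.83 ± 0.34 in MEFs and -2.04 ± 0.57 in ESCs (SD), and did not differ past the test (adjusted p = 0.606).

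In NPCs 213 windows were earlier on 129 (background 2.16%) and 162 on Cas (background 1.87%), 6.03% of the members in all against 4.03% of all windows. As in ESCs the majority turned with the scaling, with 56.8% earlier on 129 as deposited, 53.2% with quantile normalization and 46.8% (163 against 185) with median centring. This count rests on the spread that the 11 lines and embryos share. The 2 NPC lines fitted alone gave 0 windows with limma, and 1211 members (19.5%, against 16.4% of all windows) at an unadjusted p below 0.05. With 1 NPC line left out it was 71 or 78, and without MEF embryos 1 and 3 it was 142. Windows past the test in both NPCs and ESCs numbered 183, which are 9.02% of the ESC ones and 48.8% of the NPC ones. Over all autosomal windows these shares were 7.14% and 46.8%. The sign was the same in 173 of the 183 (94.5%), against 88.9% of the 829 such windows in the genome, as a description with no test. The allelic differences of ESCs and NPCs correlated at r = 0.386 over the members and 0.235 over other windows; both NPC lines are also in the ESC group. The difference changed between NPCs and ESCs in 1163 windows (18.7%, background 16.1%), or 775 without embryos 1 and 3. This test had no term for the shared lines.

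In the XEN line C57B6 and Cas were apart by at least 0.5 in 2079 windows (33.4%, background 32.8%), a description of 1 line with no test. Both of its profiles passed this size with 1 sign in 1498 windows (24.1%, against 20.1% of all windows), 577 earlier on C57B6 and 921 on Cas. At Oog1 the difference was 3.34 and at Olfr164 2.49 toward C57B6, and both borders were kept there (3.10 and 3.17). At Dsg4 it was 0.85, at Maml3 -0.04 and near Chodl -0.27, well short of the ESC values.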

How the data were processed

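Replication timing was taken from the deposited table, which holds 1 value per allele, profile and 50 kb window of mm10. Values are log2 ratios of early to late S phase signal that the authors scaled, per the file headers and labels; no source used here states the log base, and log2 was read from their range. The submitters' processing notes name Bowtie2, SAMtools and bedtools; no other step is given in the sources used here, and the depth is unknown. All 54 sample columns were used.

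Profiles were averaged per line or embryo. Alleles, timing and slope (difference of windows 400 kb apart) were fitted with limma 3.58.1 in R 4.3.3 by cell type over 11 lines and embryos (5 ESC in 2i, 2 NPC, 4 MEF), adjusted by Benjamini-Hochberg over all autosomal windows, and tested on simulated data. Calls needed an adjusted p below 0.05 and 0.5 for an allelic difference, 1 for timing or 1.2 for slope. The 2 NPC lines are also among the ESC lines, and the fit had no term for the line. Feeder, V6.5 and XEN profiles were described only. The members, lists and loci were chosen with earlier results of these data known. Loci are the 6 steepest regions and the regions with the largest allelic differences in ESCs (5 each way) and MEFs (3 each way). Also named are the 4 most kept regions and the 4 with the lowest slopes outside ESCs, some of them turned. Genes were placed with RefSeq tables of GRCm38.p6, which list 16456 starts of 20661 protein-coding genes. Over 36 pairs of groups, deviations of same-numbered profiles correlated at -0.13 to 0.056 (median 0.002) for allelic differences. For timing the range was wider, -0.34 to 0.24, with a median of 0.0005. There was no shared direction, so numbers were not taken to pair samples.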

Additional observations from a re-analysis of the deposited data

Results flagged for a closer look

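Among 108 sets of values from 4 or 5 lines or embryos, 3 held a value far from the rest, and chance gives about 1 set in 20. At Oog1 the slope of F121-6 in 2i was 1.65, against 3.10 to 3.53 in the other lines. At the same window the allelic difference of embryo 3 was 2.47, against 1.89 to 1.97 in the other embryos. At Adam6b the slope of embryo 4 was 4.96, against 4.30 to 4.38. Both loci hold near-identical gene copies.

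The allelic difference changed between MEFs and 2i ESCs in 2079 transition windows and between NPCs and 2i ESCs in 1163, by limma's test of the change itself. The NPC lines are also in the ESC group, and the test had no term for this. Among the regions described, the MEF difference was more toward Cas by -2.23 near Ss18, by -2.69 at Dsg4, by -2.01 near Depdc1b, by -2.29 near Cobl and by -1.24 near LOC108167368 and Asap2. It was more toward 129 by 1.98 near D16Ertd472e, 2.81 in Maml3, 3.08 near Fam241a, 1.48 near Ccnh, 2.52 near Gk2 and 0.87 near Nmur2. All MEFs have 1 direction of cross, so a parental effect cannot be told apart from a strain effect in them.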

How the results depend on the processing

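Transition windows numbered 3982 at a threshold of 2.8, 286 with flanks at 100 kb and 9603 at 300 kb, and 5885 to 6763 with 1 line left out. With a minimum allelic difference of 1 the counts were 527 in ESCs, 164 in MEFs and 87 in NPCs, and 680 and 474 for the changes in MEFs and NPCs. With no minimum they were 3330 in ESCs and 1650 in MEFs. A slope minimum of 2.4 gave 1944 kept in MEFs and 2386 in NPCs, and a timing minimum of 2 gave 692 changed in NPCs and 1178 in MEFs. Without embryos 1 and 3, which also leaves fewer embryos in the fit, 367 windows differed in MEFs and 142 in NPCs, and 1192 and 775 changed. With 1 line or embryo left out the counts were 1982 to 2052 in ESCs, 855 to 977 in MEFs, 71 to 541 in NPCs (71 without Cas129 NPCs and 78 without F121-9 NPCs), 1809 to 2082 for the MEF change and 493 to 1273 for the NPC change (493 and 499 without those NPC lines). Timing changed in 3001 to 3086 (MEF) and 2379 to 2682 (NPC), and 4086 to 4121 and 4487 to 4745 borders were kept. With only the groups compared in the fit, 0 windows differed in NPCs and 575 changed. With the replicate block 653 differed in NPCs, though the numbers were not taken to pair samples. By midpoint, chosen after seeing the data, 6 endoderm and 5 fibroblast genes were members. The other 149 alternatives stayed within 1.5 times the count given, and every refit of the ESC or MEF allelic difference at the regions named for it kept direction and call. Depth is unknown, and 2 NPC lines and 1 XEN line limit those cells most.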
